A study of Mus musculus with 6 samples.

Results

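Myostatin and activin signalling was described in whole tibialis anterior (TA) muscle after knockdown of Yap, the transcriptional co-activator at the end of the Hippo pathway. The genes were chosen by name from the textbook pathway and comprised the ligand Mstn, its extracellular inhibitors Fst and Fstl3, the receptors Acvr2a, Acvr2b, Acvr1b and Tgfbr1, and the intracellular Smad2, Smad3 and Smad7. Of these 10 genes, 9 were found among the 13226 genes tested, and Fstl3 was not analysed here. Muscles came from male C57BL/6 mice that were 8 weeks old when both TA muscles were injected, 1 with AAV6:Yap-shRNA and the other with the control vector, and were taken 7 days later. Polyadenylated RNA of 3 control and 3 Yap-shRNA muscles was sequenced. The control is named AAV6:LacZ-shRNA in the vector field and in the series' design text, whereas the sample titles call it an empty vector. AAV6 is an adeno-associated virus that transduces muscle fibres, and the shRNA was carried on a plasmid with a CMV promoter and eGFP. Each sample was whole muscle, and the share of its cells that was transduced was not measured here.

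Myostatin is a secreted member of the TGF-beta family that is made by muscle fibres and limits muscle growth. Myostatin and the activins bind the type II receptors Acvr2a and Acvr2b, which recruit a type I receptor, mainly Acvr1b or Tgfbr1, and the type I receptor then phosphorylates Smad2 and Smad3. Follistatin, the product of Fst, traps these ligands outside the cell, and Smad7 blocks the type I receptor from inside and is itself induced by the pathway. The comparison asks whether transcripts of this pathway differed when Yap, a positive regulator of muscle mass, was lowered.

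Yap1 itself was lower in all 3 Yap-shRNA muscles, at 32.0, 23.9 and 39.5 CPM (counts scaled to a common library size by TMM), than in the 3 control muscles, at 71.2, 65.3 and 68.4 CPM. Its level with Yap-shRNA was 46.5% of control (log2 fold change -1.10, 95% confidence interval -1.47 to -0.74, edgeR quasi-likelihood adjusted p = 0.436, adjusted by Benjamini and Hochberg's method over all genes). Library totals lay between 11987167 and 12710393 counts. The 8 fast fibre markers together took 106630 to 128516 CPM in each library and the 7 slow fibre markers 89.8 to 151.6 CPM. Of the 8 fast fibre markers 0 had a log2 fold change above 0 (median -0.11), and of the 7 slow fibre markers 3 did. The fast fibre sums overlapped (107991 to 128516 CPM in controls, 106630 to 118662 CPM with Yap-shRNA), and 0 of these markers passed the test by edgeR. Other tissues were unequally present. Control 1 and Yap-shRNA 3 had the highest sums of 5 tenocyte markers (639.3 and 529.4 CPM, against 126.1 to 173.7 CPM in the other 4 muscles) and of 7 fibroblast markers (1721 and 2002 CPM, against 899.6 to 1080 CPM). Most of the fibroblast sum was Col1a1 and Col3a1. They stood at 672.6 and 790.4 CPM in control 1 and at 826.2 and 861.6 CPM in Yap-shRNA 3. Pdgfra and Lum were also highest in these muscles, whereas Smoc2, Pi16 and Dpt were higher in Yap-shRNA 1 than in control 1. Yap-shRNA 3 also had the highest sum of 5 adipocyte markers, at 86.8 CPM against 13.2 to 24.2 CPM. The 6 liver transcripts looked for summed to 398.8 CPM in control 3 and to 0.399 to 47.9 CPM in the others, so control 3 stood apart in this respect. In whole muscle, fewer cells of a type and less RNA per cell cannot be told apart.

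With Yap at less than its control level, no gene of the pathway described here passed the test. In edgeR's quasi-likelihood fit none of the 9 reached an adjusted p under 0.05, where the share called over all genes was 0%, and none had an unadjusted p under 0.05, where the share over all genes was 1.75% (232 of 13226). On leaving out single muscles 1 of the 9 fell under an unadjusted 0.05 in each of 2 fits, Acvr2a without control 1 (957 of all 13226 genes) and Fst without Yap-shRNA 2 (223 of all 13226 genes), and neither passed once adjusted. DESeq2, the likelihood ratio test and limma-voom likewise called 0 of the 9, while DESeq2 called 0.0378% of all genes, the likelihood ratio test also 0.0378%, and limma-voom 0. Leaving out control 1 and Yap-shRNA 3 together, the muscles rich in tendon transcripts, called 0.0227% of all genes and again 0 of the 9. The groups overlapped for all 9 genes, whereas 5.27% of all genes had groups that did not overlap (2.56% with Yap-shRNA higher and 2.71% with Yap-shRNA lower). Of the 9 log2 fold changes 4 lay above 0 and 5 below, from -0.33 for Acvr2b to 0.57 for Fst, with a median of -0.024 beside -0.0029 over all genes tested.

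**Figure D1:**
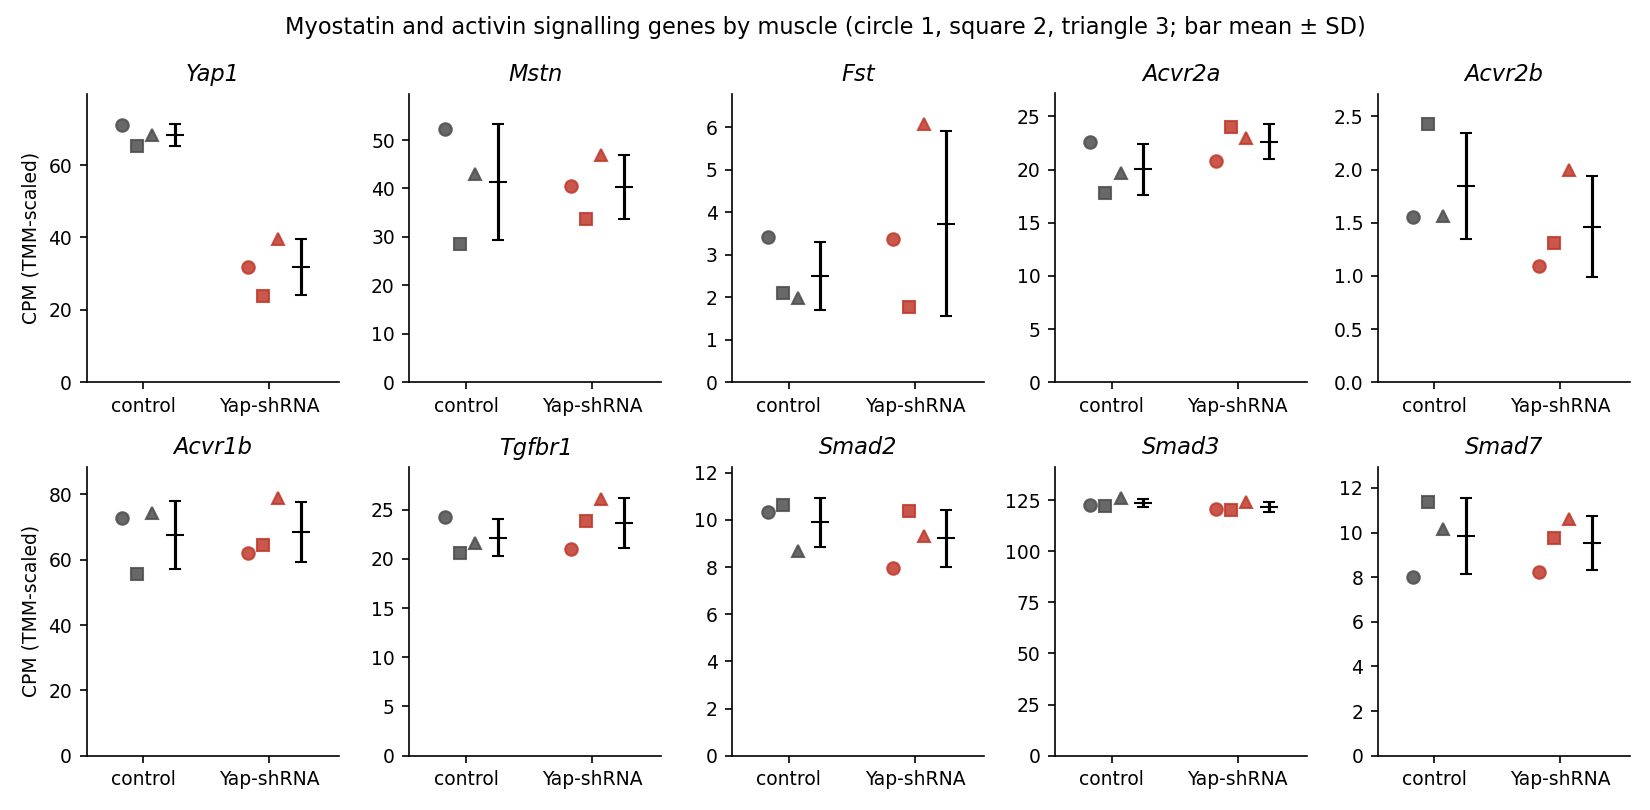
Level of Yap1 and of the 9 pathway genes in each muscle, in TMM-scaled CPM on axes that start at 0 (grey control, red Yap-shRNA; circle, square and triangle are muscles 1, 2 and 3; black bars are mean ± SD, n = 3). Only the Yap1 panel has groups that do not overlap, and Fst has its highest value, 6.06 CPM, in Yap-shRNA 3.

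Mstn (ENSMUSG00000026100), the ligand, lies on the plus strand of chromosome 1 of GRCm38, from 53061640 to 53068079, with 2 annotated protein-coding transcripts. It was at 52.2, 28.5 and 43.1 CPM in control muscles 1 to 3 and at 40.5, 33.6 and 46.9 CPM in Yap-shRNA muscles 1 to 3. The highest and the lowest muscle were both controls, and the Yap-shRNA muscles lay between them. Group means were 41.3 ± 12.0 CPM (SD, n = 3) and 40.3 ± 6.63 CPM (SD, n = 3). The log2 fold change was -0.034, with a 95% confidence interval from -0.50 to 0.43 (exact permutation test on CPM, two-sided, p = 0.9). The smallest p that 3 muscles against 3 allow is 0.1. Mstn varied more among muscles of one group than most genes did, with a coefficient of variation of 29.0% in controls and 16.4% with Yap-shRNA, beside medians of 14.1% and 10.4% over all genes. The sign rested on single muscles, since the log2 fold change was 0.17 without control 1 and 0.082 without Yap-shRNA 2, and it was -0.24 without control 2.

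The promoter of Mstn is shown because Yap acts on genes through Tead factors, whose element can be looked for, and because Mstn is the ligand at the head of the pathway. E-boxes are sites that the myogenic regulatory factors, among other factors, can bind, and a match does not show that they do. The 250 bases before its start, chr1:53061390-53061639 on the plus strand of GRCm38 (RefSeq), are printed with capitals for 4 E-boxes (CANNTG) and 2 Smad boxes (CAGAC or its reverse complement GTCTG), the short motif bound by Smad3.

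Mstn promoter: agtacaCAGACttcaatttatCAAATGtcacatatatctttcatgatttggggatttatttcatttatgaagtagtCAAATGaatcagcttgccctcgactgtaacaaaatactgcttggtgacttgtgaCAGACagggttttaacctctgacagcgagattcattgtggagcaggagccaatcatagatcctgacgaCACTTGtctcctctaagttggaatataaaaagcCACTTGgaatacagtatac

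No match of the 3 motifs searched overlaps another in this window. The third motif was the MCAT element (CATTCC or GGAATG), the sequence that the Tead partners of Yap bind, and the Mstn window holds none. The same window was searched for the 6 genes with an entry outside chromosome 18 (Mstn, Acvr2a, Acvr2b, Acvr1b, Smad3 and both starts listed for Tgfbr1). None of these 6 holds an MCAT element, 4 hold a Smad box and 3 an E-box. Over all 32851 RefSeq promoter windows of the same length, 12.6% hold an MCAT element, 42.2% a Smad box and 66.2% an E-box, on either strand. A window without a match says nothing of binding elsewhere.

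Fst (ENSMUSG00000021765; minus strand of chromosome 13, 114452290 to 114458951) encodes follistatin and was low, with a mean CPM above that of 21.2% of all genes. It was counted 44, 25 and 24 times in controls 1 to 3 and 40, 23 and 76 times with Yap-shRNA. The highest count was in Yap-shRNA 3 and the lowest in Yap-shRNA 2, so both ends of the range fell in the same group. In CPM the means were 2.49 ± 0.808 (SD, n = 3) and 3.73 ± 2.17 (SD, n = 3). The log2 fold change of 0.57 had the widest interval of the 9 genes, from -0.38 to 1.52 (exact permutation test, two-sided, p = 0.7). The coefficient of variation with Yap-shRNA was 58.3%, whereas counting error alone gives 14.7% at this depth. This value moved with single muscles. Without Yap-shRNA 3 the log2 fold change was 0.028, while without Yap-shRNA 2 it was 0.91, without control 1 0.87, and without control 1 and Yap-shRNA 3 together 0.33. The adjusted p over these and the other settings ranged from 0.721 to 1.00, and both ends came from edgeR's quasi-likelihood test. An antisense gene, Gm47040, shares 115 exonic bases with Fst, and the strand setting of the counting is not given in the sources used here.

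Fst and Mstn were both highest in the 2 muscles with the highest tenocyte and fibroblast marker sums, but this was not particular to them. Tgfbr1 was also highest there, at 24.3 CPM in control 1 and 26.1 CPM in Yap-shRNA 3, with Yap-shRNA 2 next at 23.9 CPM. Of the 9 genes only 2 lay below their own mean in control 1 and 1 in Yap-shRNA 3, and the share over all genes is not given here. Control 1 and Yap-shRNA 3 had 3.42 and 6.06 CPM of Fst, and the next muscle, Yap-shRNA 1, had 3.36 CPM with a fibroblast sum of 1011 CPM and a tenocyte sum of 169.0 CPM, both within the range of the remaining muscles. For Mstn the values in control 1 and Yap-shRNA 3 were 52.2 and 46.9 CPM, and the next was control 3 with 43.1 CPM. Of the 7 fibroblast and the 5 tenocyte markers, 6 and 1 had log2 fold changes above 0, and 0 passed the test by edgeR. Their group ranges overlapped (899.6 to 1721 CPM in controls and 1011 to 2002 CPM with Yap-shRNA for fibroblasts). The part of these cells in the values of Fst and Mstn was not tested. As a ratio of levels per length, Mstn exceeded Fst 28.7 ± 7.40-fold (SD, n = 3) in controls and 22.0 ± 9.68-fold (SD, n = 3) with Yap-shRNA, with overlapping ranges. Length here is that of the merged exons of all annotated transcripts, 2705 bases for Mstn and 4589 for Fst. Such ratios depend on this choice of length.

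**Figure D2:**
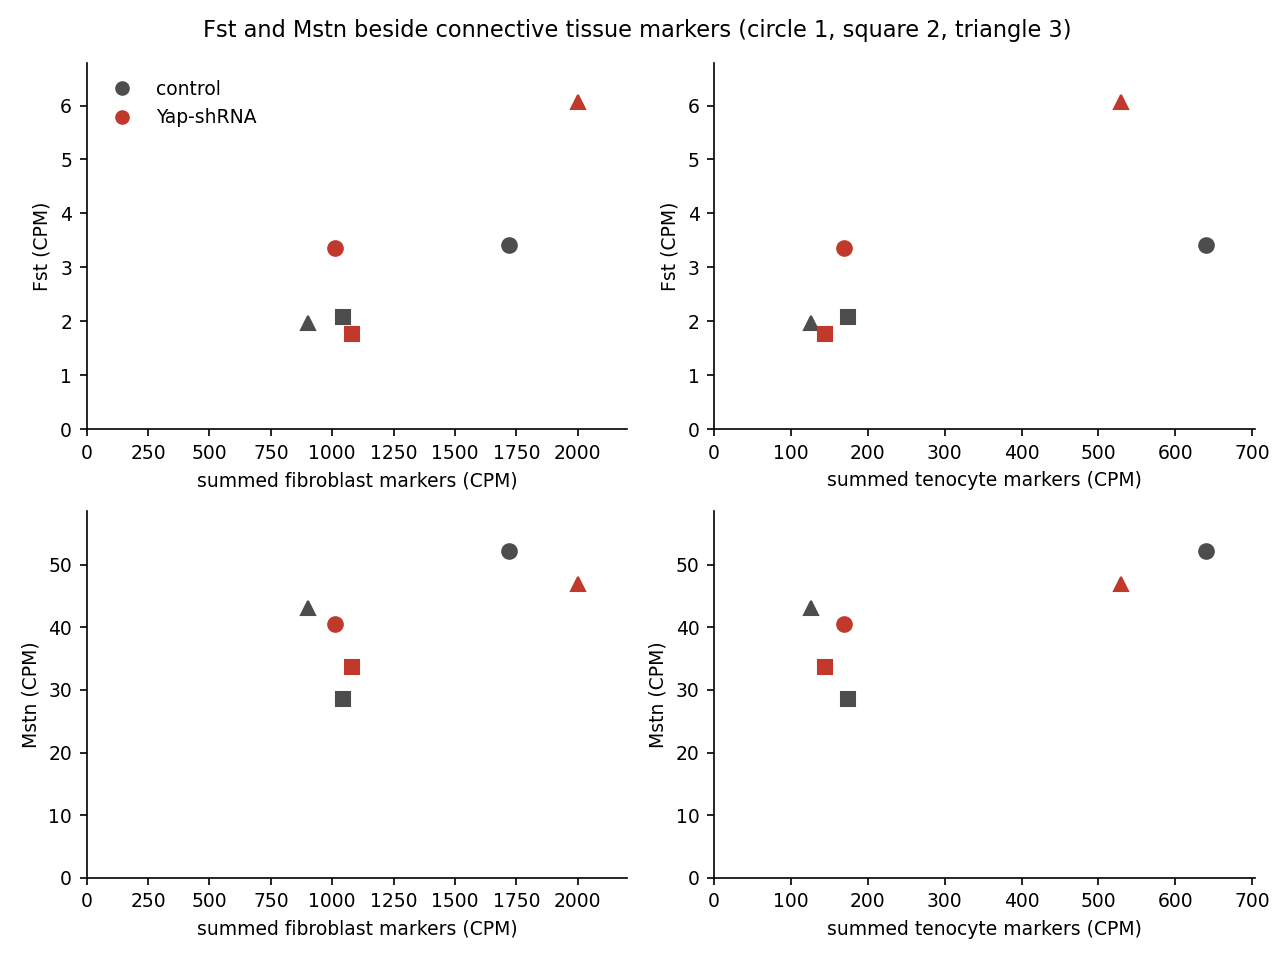
Fst (top) and Mstn (bottom), in CPM, against the summed CPM of 7 fibroblast markers (left) and 5 tenocyte markers (right) in the same muscle (grey control, red Yap-shRNA; circle, square and triangle are muscles 1, 2 and 3). Control 1 and Yap-shRNA 3 stand to the right in each panel and hold the 2 highest values of both genes, whereas the other 4 muscles differ in Fst and Mstn at similar marker sums.

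The type II receptors were unequal in abundance. Acvr2a (ENSMUSG00000052155; plus strand of chromosome 2, 48814109 to 48903269) was at 22.6, 17.8 and 19.7 CPM in the controls and 20.8, 24.0 and 23.0 CPM with Yap-shRNA. Of the 9 genes it had the smallest unadjusted p, 0.184 by edgeR's quasi-likelihood test. Control 1 lay above Yap-shRNA 1, so the groups overlapped. It differed by 0.17 on the log2 scale (95% confidence interval -0.099 to 0.45; exact permutation test, two-sided, p = 0.2), and it was above 0 in each of the 15 alternative fits, from 0.097 without control 2 to 0.27 without control 1. The annotation places 446 exonic bases of Acvr2a over those of Orc4 on the opposite strand, and reads from this stretch may be lost or misassigned.

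Acvr2b (ENSMUSG00000061393; plus strand of chromosome 9, 119402118 to 119434995), the type II receptor that myostatin binds with high affinity, was the least abundant gene of the pathway described here. It was counted 20, 29 and 19 times in controls 1 to 3 and 13, 17 and 25 times with Yap-shRNA. Control 2 was the highest and Yap-shRNA 1 the lowest, and Yap-shRNA 3 exceeded 2 of the 3 controls. The difference was -0.33 on the log2 scale, with an interval from -1.10 to 0.44 (exact permutation test, two-sided, p = 0.4). With so few counts the counting error alone was 21.0% in controls and 23.4% with Yap-shRNA, beside observed coefficients of variation of 27.1% and 32.2%. Left out in turn, single muscles moved it from -0.62 without Yap-shRNA 3 to -0.088 without control 2, and it was -0.72 without control 1 and Yap-shRNA 3 together. Per length, Acvr2a exceeded Acvr2b 7.94 ± 2.56-fold (SD, n = 3) in controls and 11.3 ± 2.89-fold (SD, n = 3) with Yap-shRNA, and the ranges of this ratio overlapped.

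Both type I receptors varied less between muscles than Fst and Acvr2b. Acvr1b (ENSMUSG00000000532; plus strand of chromosome 15, 101174067 to 101213684), also known as Alk4, was at 72.9, 55.6 and 74.3 CPM in the controls and 62.1, 64.6 and 78.9 CPM with Yap-shRNA. The lowest value was in control 2, where Mstn, Acvr2a and Tgfbr1 were also at their lowest. With a log2 fold change of 0.020, the interval ran from -0.29 to 0.34 (exact permutation test, two-sided, p = 1.0), and the sign turned without control 2 (-0.10), without Yap-shRNA 3 (-0.094) and without control 1 and Yap-shRNA 3 together (-0.036). Tgfbr1 (ENSMUSG00000007613; plus strand of chromosome 4, 47353222 to 47414931), the type I receptor shared with TGF-beta and also known as Alk5, was at 24.3, 20.6 and 21.7 CPM in the controls and 21.0, 23.9 and 26.1 CPM with Yap-shRNA. Its interval ran from -0.18 to 0.36 around a log2 fold change of 0.093 (exact permutation test, two-sided, p = 0.6). Per length, Acvr1b exceeded Tgfbr1 4.50 ± 0.539-fold (SD, n = 3) in controls and 4.28 ± 0.252-fold (SD, n = 3) with Yap-shRNA.

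Among the receptor-activated Smads, Smad3 (ENSMUSG00000032402; minus strand of chromosome 9, 63646767 to 63757994) varied least of the 9 genes. It was at 122.7, 122.2 and 126.1 CPM in the controls and at 120.5, 120.1 and 124.2 CPM with Yap-shRNA. The coefficients of variation were 1.73% and 1.89%, below the 2.56% that counting error alone gives at the mean control count. Its log2 fold change was -0.024, with an interval from -0.21 to 0.16 (exact permutation test, two-sided, p = 0.3), and it lay between -0.046 and -0.010 over all settings. Smad2 (ENSMUSG00000024563; plus strand of chromosome 18, 76241580 to 76310963) was at 10.4, 10.6 and 8.70 CPM in the controls and 7.97, 10.4 and 9.33 CPM with Yap-shRNA, which overlapped. Its log2 fold change was -0.10, with an interval from -0.46 to 0.26 (exact permutation test, two-sided, p = 0.6). Per length, Smad3 exceeded Smad2 20.0 ± 2.59-fold (SD, n = 3) in controls and 21.1 ± 2.80-fold (SD, n = 3) with Yap-shRNA, and at least 18.2-fold in every muscle. The merged exons used as length were 5542 bases for Smad3 and 8781 for Smad2, so this ratio is larger than that of the CPM values.

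Smad7 (ENSMUSG00000025880; plus strand of chromosome 18, 75367529 to 75395935), the inhibitory Smad, is both part of the pathway and one of its transcriptional targets. It was at 8.02, 11.4 and 10.2 CPM in the controls and 8.22, 9.75 and 10.6 CPM with Yap-shRNA. Control 1 was the lowest and control 2 the highest, so the Yap-shRNA muscles again lay within the control range. On the log2 scale the difference was -0.047, with an interval from -0.44 to 0.35 (exact permutation test, two-sided, p = 0.8), and its sign turned without control 2 (0.068) and without Yap-shRNA 1 (0.049).

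**Figure D3:**
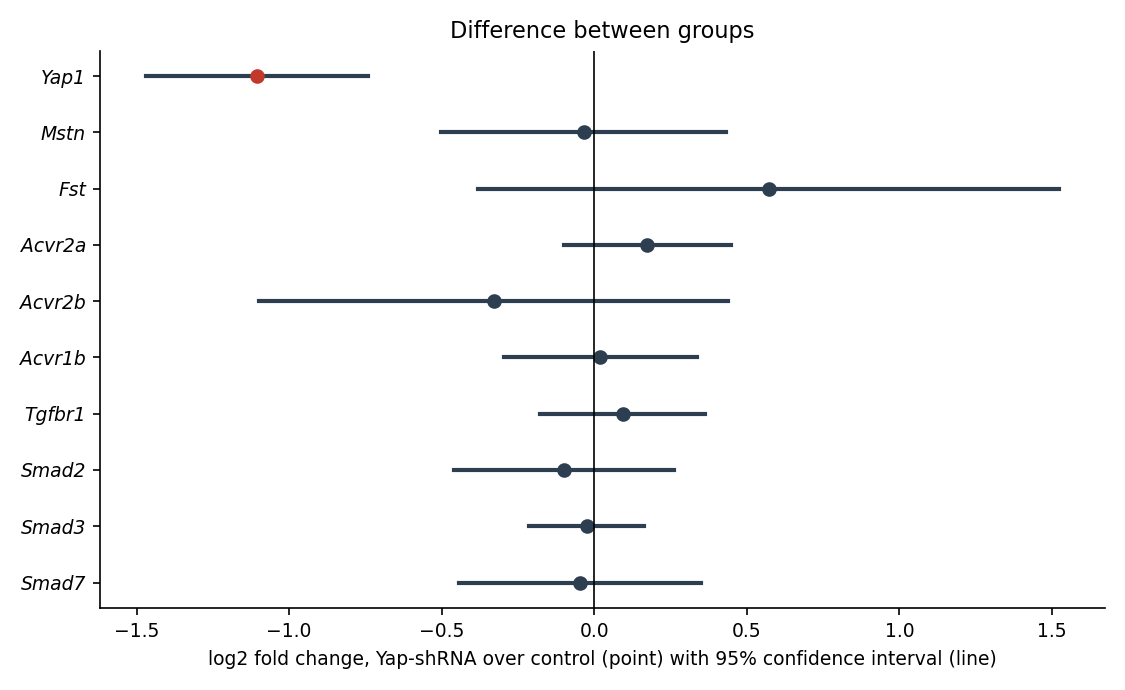
Log2 fold change of Yap-shRNA over control muscles (points) with its 95% confidence interval from edgeR's quasi-likelihood fit (lines), for Yap1 (red) and the 9 pathway genes. The interval of Yap1, -1.47 to -0.74, lies below 0, and each of the other 9 intervals spans 0, from -0.21 to 0.16 for Smad3 to -0.38 to 1.52 for Fst.

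The intervals show which sizes of change these muscles could bear. For 7 of the 9 genes the whole interval lay within a log2 fold change of 1 in either direction, that is within a doubling or halving, as it did for 11495 of the 13226 genes tested. The exceptions were Fst and Acvr2b, the genes with the fewest counts.

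Ordered by level per length (CPM per kilobase of merged exons, mean of the 6 muscles), Smad3 was first at 22.1, followed by Acvr1b at 15.4 and Mstn at 15.1. Smad3 lay above both in every muscle, whereas Acvr1b (12.6 to 17.9) and Mstn (10.5 to 19.3) overlapped across muscles. A second tier held Acvr2a at 3.75 and Tgfbr1 at 3.51, whose ranges also overlapped, and then Smad7 at 2.14, whose range of 1.77 to 2.52 touched neither neighbour. Smad2 at 1.09, Fst at 0.678 and Acvr2b at 0.421 formed the lower end, and here Fst, with a range of 0.385 to 1.32, overlapped both Smad2 and Acvr2b. Among all genes by mean CPM, without regard to length, Smad3 stood above 93.5%, Acvr1b above 87.7% and Mstn above 79.4%, while Fst stood above 21.2% and Acvr2b above 11.1%.

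**Figure D4:**
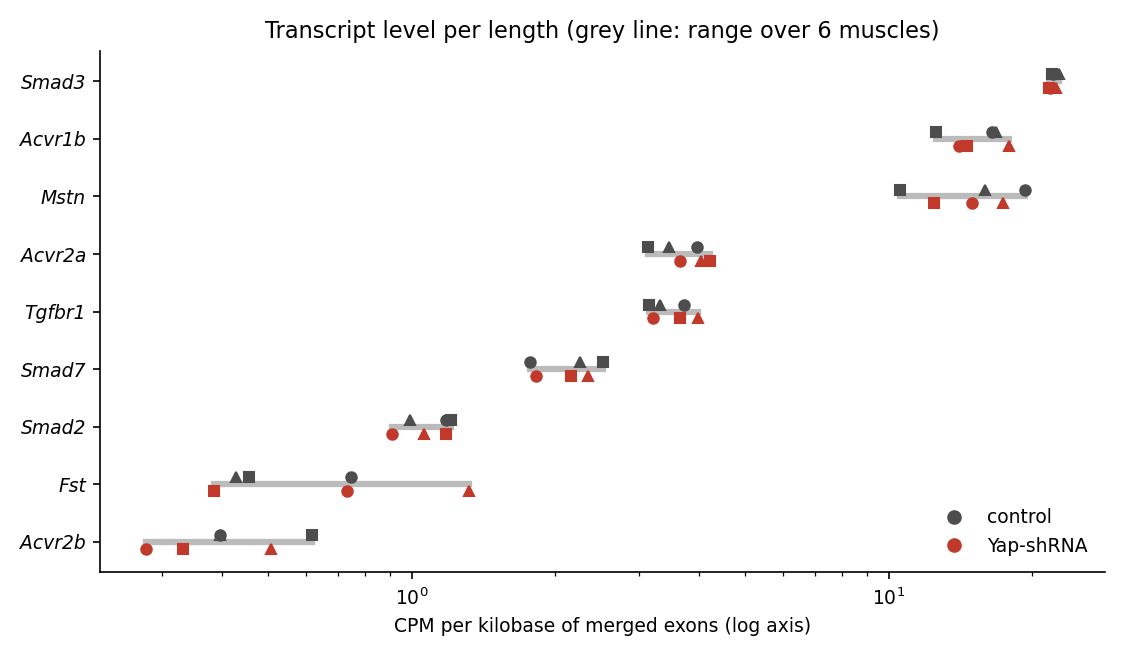
Level of each gene per length, in CPM per kilobase of merged exons on a log axis, for each muscle (grey control above the line, red Yap-shRNA below it; circle, square and triangle are muscles 1, 2 and 3; the grey line is the range). Levels span from 0.278 for Acvr2b in Yap-shRNA 1 to 22.8 for Smad3 in control 3, and both groups share the same order of tiers.

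Across the 9 genes, single muscles rather than groups were high or low. In Yap-shRNA 3, 8 of the 9 genes lay above their own mean over the 6 muscles (median deviation 0.19 on the log2 scale), and in control 1 7 of the 9 did (median 0.089). In Yap-shRNA 1, 7 of the 9 lay below it (median -0.12), and in control 2 6 of the 9 (median -0.15), although control 2 also held the highest values of Acvr2b, Smad2 and Smad7. These deviations are descriptions of 6 muscles and carry no test. The same counts over all genes are not given here, so they are not read as a trait of this pathway.

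Other genes of the pathway came from lists of 76 different genes, of which 61 were tested. None passed the threshold in either direction by edgeR's quasi-likelihood test, by DESeq2, by the likelihood ratio test or by limma-voom. At an unadjusted p under 0.05 there were 2 of 61, beside 1.75% of all genes. This count moved with control 1, since it was 12 of 61 without control 1 (957 of all 13226 genes) and 12 of 61 without control 1 and Yap-shRNA 3 together (736 of all 13226 genes). The groups did not overlap for 2 of 61, beside 5.27% of all genes. The log2 fold changes were above 0 for 41 of the 61 genes and below 0 for 20, with a median of 0.039. Over all genes 6468 of 13226 were above 0.

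Of the ligands of the activin and TGF-beta branch 6 were tested, with a median log2 fold change of -0.00063. Inha, which encodes the inhibin alpha subunit, an antagonist of activin when joined to a beta subunit, was counted 120, 103 and 119 times in controls 1 to 3 and 66, 58 and 124 times in the Yap-shRNA muscles. Yap-shRNA 1 and 2 lay below all controls and Yap-shRNA 3 was the highest of the 6 in counts, so the log2 fold change of -0.48 (95% confidence interval -1.08 to 0.12) did not pass, and it was -0.89 without Yap-shRNA 3. Inhbb, which encodes an activin beta subunit, had only 4 to 22 counts in any muscle, with a log2 fold change of 0.83 (interval -0.36 to 2.03), which was 1.72 without control 1, 0.49 without control 2 and 1.52 without control 1 and Yap-shRNA 3 together, and passed the adjusted threshold in none of these. Tgfb1 was at 9.55 ± 0.344 CPM (SD, n = 3) in controls and 11.1 ± 2.03 CPM (SD, n = 3) with Yap-shRNA. Gdf11, the closest relative of myostatin, had a log2 fold change of -0.20 (interval -1.02 to 0.61), and it is named here in view of that kinship, after its values were seen.

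Outside the cell, 11 genes of ligand binding, latency and processing were tested, with a median log2 fold change of 0.0030. The 3 with the smallest p were Dcn, a proteoglycan that can sequester myostatin and TGF-beta, Nrros and Lrrc32, both of which anchor latent TGF-beta on cells. Their log2 fold changes were 0.20, 0.18 and -0.11, and the interval of each spanned 0.

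The 9 other receptors and co-receptors had a median of 0.063. Acvr1, a type I receptor for activins and bone morphogenetic proteins (BMPs), had no Yap-shRNA muscle below any control, the lowest Yap-shRNA muscle being at 19.2 CPM and the highest control at 18.6 CPM. Its means were 17.2 ± 2.05 CPM (SD, n = 3) in controls and 20.1 ± 1.51 CPM (SD, n = 3) with Yap-shRNA. Its log2 fold change was 0.22 (interval -0.061 to 0.50; edgeR adjusted p = 1.00). Tgfbr2, the type II receptor for TGF-beta, stood at 0.22 (interval -0.16 to 0.61) and Bmpr1a at -0.12 (interval -0.32 to 0.085). Smad4, the common partner of the receptor-activated Smads, had a log2 fold change of 0.0014 (interval -0.24 to 0.24). It was named after its values were seen. Among the 11 genes of the common Smad and Smad regulators the median was 0.0014, and Pmepa1, Tgif1 and Smurf1, which restrain Smad signalling, stood at 0.24, 0.29 and 0.13, with intervals that spanned 0.

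The 11 tested Smad2/3 response genes had 10 log2 fold changes above 0 and 1 below, with a median of 0.21, and none passed the test. Cdkn1a, which encodes the cell cycle inhibitor p21, was counted 452, 347 and 473 times in controls 1 to 3 and 562, 564 and 801 times in the Yap-shRNA muscles. The groups did not overlap, and the log2 fold change was 0.58 (interval 0.21 to 0.95), and edgeR gave an unadjusted p of 0.0059 that became 1.00 once adjusted. Tgfbi stood at 0.51 (interval -0.14 to 1.15). Cdkn1a also answers to signals other than Smads, and several genes of this list, such as Col1a1 and Col1a2, are made by fibroblasts, whose marker sums were highest in control 1 and Yap-shRNA 3. Col1a1 is itself among those fibroblast markers, so the list and that sum are not independent. The 10 macrophage markers all had log2 fold changes above 0, none past the threshold, with sums of 101.3 to 237.1 CPM in controls and 172.8 to 222.5 CPM with Yap-shRNA. The part of these cells in the list was not tested.

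In the BMP branch, which signals through Smad1 and Smad5 and favours muscle growth, 15 genes were tested and the median was 0.069. Bmp7, with 8 to 19 counts in any muscle, had a log2 fold change of 0.60 (interval -0.25 to 1.44) and the inhibitory Smad6 one of 0.25 (interval -0.16 to 0.65).

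**Figure D5:**
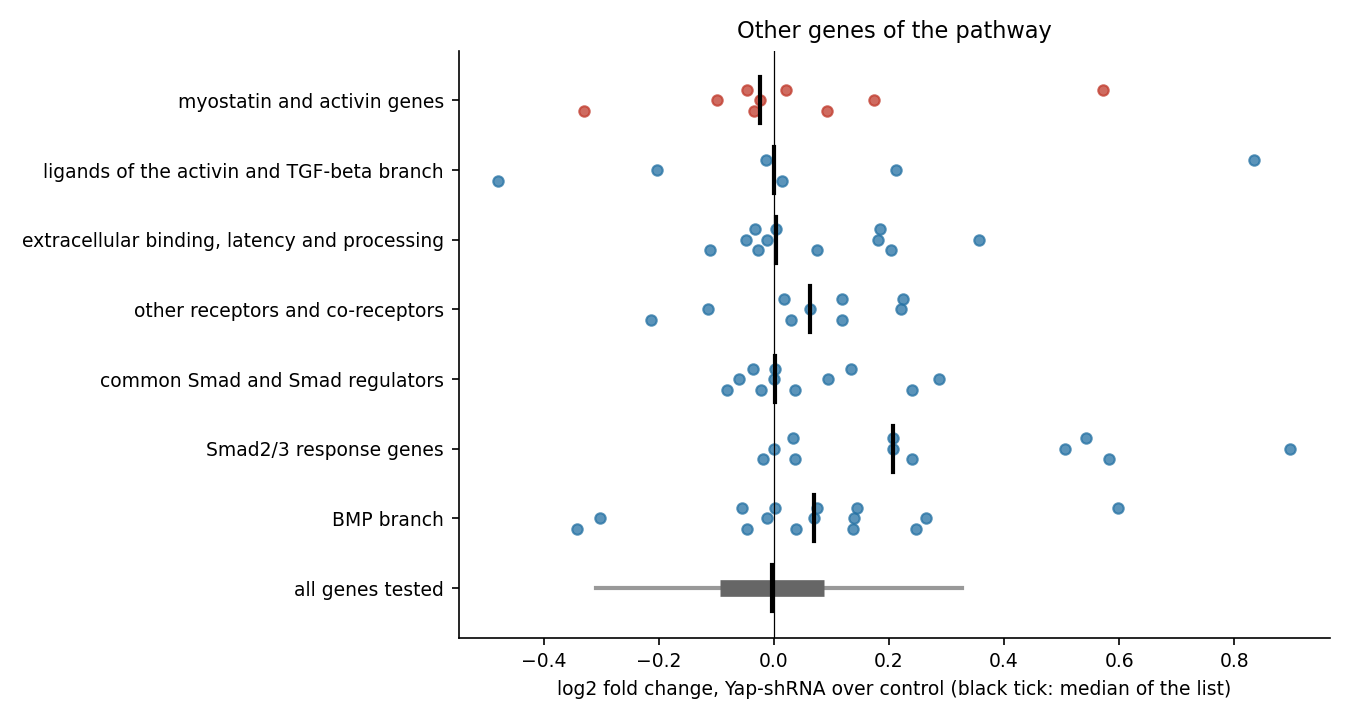
Log2 fold change of Yap-shRNA over control for the 9 genes described (red points) and each gene of the other pathway lists (blue points; black tick, median), with all 13226 genes tested in the lowest row (thin line, 5th to 95th percentile; thick line, 25th to 75th; tick, median). The medians of the lists lie between -0.024 and 0.21, and the Smad2/3 response genes have the highest.

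The genes most like Mstn across the 6 muscles, by Pearson's r of log2 CPM among the 9284 other genes of at least 5 CPM on average, were Prepl, Rps6ka5 and Map4 (r of 0.997, 0.994 and 0.992, Spearman's rho 1.0 for each). For Fst they were Ptdss1, Ogn and Zfp385a (9285 genes searched; r of 0.989, 0.987 and 0.987, rho 0.886, 0.943 and 0.943), and for Smad7 they were Gm10762, Dnajb14 and Myh4 (r of 0.996, 0.995 and 0.989, rho 0.943, 0.943 and 1.0). With 6 points such values are easily reached: 224 genes had an r over 0.9 with Mstn, 89 with Fst and 177 with Smad7.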

How the data were processed

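Total RNA of 6 whole TA muscles, 3 with the control vector and 3 with Yap-shRNA, was sequenced after poly(A) selection. The authors deposited 1 table of raw counts for each gene that had not been normalised. The labels name bcl2fastq 2.20.0.422 and GRCm38. The mapping and counting behind this table are not given in the sources used here. The article's methods, written for sorted nuclei, name Skewer, STAR and featureCounts on Ensembl annotation. No gene in the table had fewer than 60 counts over the 6 libraries, so a low-count filter had already been applied and could not be undone. The 6 columns were matched to samples by name.

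Counts were scaled by TMM and tested over all 13226 genes with edgeR 4.0.16 under R 4.3.3 (quasi-likelihood fit in its default, legacy form, fitting group alone). P-values were adjusted by Benjamini and Hochberg's method and called under 0.05. Standard errors were derived from the log2 fold change and its F statistic, and 95% confidence intervals used the t distribution with the fit's degrees of freedom. They cover 1 gene at a time. Alternatives were DESeq2 1.42.0, the likelihood ratio test, limma-voom (limma 3.58.1), other scalings, a stricter count filter, a replicate block and leaving out each muscle. The newer quasi-likelihood fit, and leaving out control 1 and Yap-shRNA 3 together, were chosen after seeing the data. The scripts were tested on simulated data.

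No library was a repeat of another: within groups, chi-square over its degrees of freedom was 7.62 to 21.4. Lengths and positions came from GENCODE M21 on GRCm38, where 13204 of the 13226 gene identifiers were found, and promoters from RefSeq (GRCm38.p6). The genes, the lists and the tests were chosen with earlier results of these data known. Besides the genes of the title, the text names the 3 genes of each pathway list with the smallest unadjusted p and the 3 genes most like Mstn, Fst and Smad7. Results of some genes named by this rule are not reported here. Lists of markers covered fast and slow fibres, fibroblasts, tenocytes, satellite cells, macrophages, neutrophils, endothelium, adipocytes and liver. Their sums overlapped between the groups for slow fibres (108.6 to 136.2 CPM in controls and 89.8 to 151.6 CPM with Yap-shRNA), satellite cells (31.5 to 33.2 CPM and 32.9 to 37.8 CPM) and endothelium (284.2 to 340.7 CPM and 303.1 to 329.5 CPM), and neutrophil markers were not analysed here.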

Additional observations from a re-analysis of the deposited data

How the results depend on the processing

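None of the 9 pathway genes and none of the 61 other pathway genes passed the threshold under any of the 15 alternatives. The count over all genes was 0 by edgeR's quasi-likelihood test (232 at an unadjusted p under 0.05), 5 with DESeq2 (Ccl2, Hspb7, Mir155hg, Rrad and Yap1), 5 with the likelihood ratio test (Actc1, Ccl2, Mir155hg, Rrad and Yap1), 3 without control 1 and Yap-shRNA 3 together (Ankrd1, Mir155hg and Rrad), and from 0 to 1 on leaving out single muscles (Mir155hg without Yap-shRNA 3). These genes are named after their values were seen. Yap1 had a log2 fold change of -1.10 with DESeq2 (adjusted p 5.85e-07) and -1.10 with the likelihood ratio test (adjusted p 2.22e-06), past the threshold in both and in none of the other 13 alternatives, with -1.29 to -0.93 on leaving out single muscles. Without control 1 and Yap-shRNA 3 together the sign turned for Mstn (0.049) and Acvr1b (-0.036). On leaving out single muscles, log2 fold changes ranged from -0.24 to 0.17 for Mstn, -0.10 to 0.093 for Acvr1b and -0.18 to 0.068 for Smad7. The cause was not tested. Fst, Acvr2a, Acvr2b, Tgfbr1, Smad2 and Smad3 kept their sign in all 15. The planned legacy form of the quasi-likelihood fit was the installed default and so gave no separate value.

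The study's description says that both muscles of an animal were paired, but not that a replicate number marks an animal. The numbers were therefore not taken as pairs in the main fit. Across genes, the departures from the group mean of muscles with the same number correlated at -0.065, 0.20 and -0.32 for numbers 1 to 3, and control 1 correlated best with Yap-shRNA 3 (0.38), so the numbers were not taken as pairs. With the replicate block 0 genes passed, the log2 fold change of Yap1 was -1.13 and that of Fst 0.48, and the block changed no call. Acvr2b had 13 to 29 counts a muscle, where counting error alone was 21.0% in controls and 23.4% with Yap-shRNA. Fst varied between muscles by more than its counting error (58.3% against 14.7% with Yap-shRNA).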
